A study of Drosophila melanogaster with 12 samples.

Results

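The genes described here are the 5 that encode subunits of protein kinase A (PKA) in Drosophila: the regulatory subunits Pka-R1 and Pka-R2 and the catalytic subunits Pka-C1, Pka-C2 and Pka-C3. They were taken by exact symbol, and all 5 were found among the 16595 genes on the study's lists. The libraries were made by computer and model S2, a macrophage-like line grown from fly embryos, so no cell was treated and the values describe how splicing programs scored genes whose class was known. There were 12 libraries. The knockdown groups model siRNA against the splicing factor PSI with splicing changes of 20%, 40% or 60% (3 libraries each), and the control group models a non-targeting siRNA (3 libraries). Splicing was scored by 6 programs (JUM, Whippet, MAJIQ, rMATS, MISO and Cufflinks), each with 1 table per level (18 tables in all) that gives 1 score to every gene it lists. None of the tables lists all 16595 genes, and they range from 315 genes (MISO, 20% level) to 14361 (Cufflinks). The study's lists hold 2000 genes named as alternatively spliced (AS list) and 14595 named as not (non-AS list). All levels share the same 3 control libraries. The 3 libraries of a knockdown group and the 3 controls are merged into a single score, which leaves no replicate error, no test over samples and no depth for any library. The tables hold splicing scores and no expression levels, so neither the loss of PSI nor markers of S2 cells can be read from them.

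PKA is held inactive as a complex of regulatory and catalytic subunits. Cyclic AMP (cAMP), made by adenylyl cyclases and removed by phosphodiesterases, binds the regulatory subunits and frees the catalytic ones, which then phosphorylate their targets. In flies the kinase is known for its part in memory and in Hedgehog signalling, where it phosphorylates Smo and Ci. The type II regulatory subunit is tethered in the cell by A-kinase anchor proteins.

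The regulatory and catalytic subunits lay on opposite lists. Pka-R1 and Pka-R2 were on the AS list and were scored high by nearly every program that listed them, while Pka-C1, Pka-C2 and Pka-C3 were on the non-AS list and were called by no program at any level. A gene is called here when its score is 0.95 or more, or its MISO Bayes factor is 10 or more, thresholds customary for such scores. Of the 30 pairs of a gene and a program, 9, 11 and 11 were calls at the 20%, 40% and 60% levels, all of them on Pka-R1 and Pka-R2. Over all 16595 genes, with unlisted genes counted as not called, the share called ran by program from 0.0121% to 4.63% at the 20% level. It ran from 0.0301% to 5.41% at the 40% level and from 0.108% to 5.75% at the 60% level. The study set the class of each gene, so the split between subunits belongs to the simulation's input and is no measurement of PKA splicing.

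**Figure D1:**
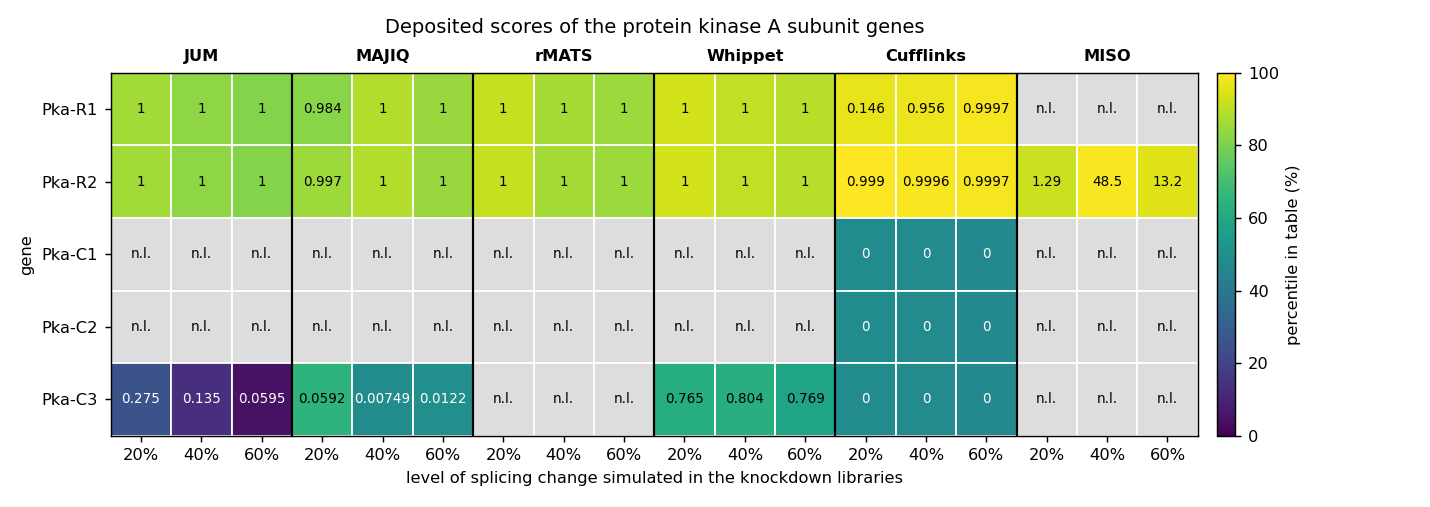
Deposited score of each PKA subunit gene (rows) in each of the 18 tables (columns, grouped by program, with the level of splicing change from 20% to 60%). Colour gives the gene's percentile among the genes listed in that table, numbers give the score (MISO as a Bayes factor), and grey cells marked n.l. are tables that did not list the gene; Pka-R1 and Pka-R2 hold a score of 1 in most tables, shared with many genes, and Pka-C1 and Pka-C2 appear only in Cufflinks, with a score of 0.

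The regulatory subunits differ in how their annotated transcripts vary. In the BDGP6.54 annotation Pka-R1 (FBgn0259243) lies on arm 3L, 20816118 to 20836048, plus strand. It has 18 transcripts with 16 distinct intron chains, an intron chain being the set of introns of 1 transcript. They begin at 6 start positions, and 6 alternative donors are spliced to the acceptor at 20832846, the start of the exons that all 18 share. Only 2 of the 14 introns are used by every transcript. A further choice lies inside the coding region: the donor at 20833657 is joined to an acceptor at 20833730 in 7 transcripts and at 20833733 in 11, a shift of 3 bases. One exon, at 20829385 to 20829540 (156 bases), is skipped or included, and it is partly coding. The annotated proteins run from 296 to 464 residues in 10 distinct coding forms, with 5 coding starts and 1 coding end.

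Pka-R2 (FBgn0022382) lies on arm 2R, 9993890 to 10026042, minus strand, with 4 transcripts that all start at the same position. Its coding choices lie at the other end of the gene. The donor at 9997704 is joined to 1 of 3 last exons, whose acceptors are at 9996621, 9997220 and 9997551. These give 3 coding ends and proteins of 373, 376 or 377 residues, with a single coding start. In the leading exons, upstream of the coding region, there is 1 alternative donor, at 10025829 or 10025850, and 1 alternative acceptor, at 10024202 or 10024359. Its 4 transcripts give 4 intron chains, and 7 of 13 introns are used by all of them.

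The catalytic subunits have fewer annotated forms. Pka-C1 (FBgn0000273), the main catalytic subunit, lies on arm 2L, 9682315 to 9699297, minus strand, and its 3 transcripts and 3 intron chains all encode the same protein of 353 residues. Pka-C2 (FBgn0000274) is a compact gene on arm 3R, 30695537 to 30697138, minus strand. Its 2 transcripts differ by a donor shifted by 3 bases (30696792 or 30696795), and the proteins have 353 and 354 residues. Pka-C3 (FBgn0000489), the fly counterpart of human PRKX, lies on arm 3L, 15925805 to 15954797, minus strand. It has 2 transcripts with separate starts that meet at the acceptor at 15947579 and encode proteins of 500 and 583 residues. None of the 5 genes is thus limited to 1 intron chain. Both regulatory genes overlap another listed gene: Mst77F overlaps Pka-R1 on the opposite strand and mir-4967 overlaps Pka-R2 on the same strand, both on the non-AS list. Which junctions the simulation altered is not given in the sources used here, and the submitters' notes name the older build dm3, so the scores cannot be assigned to any of these junctions.

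**Figure D2:**
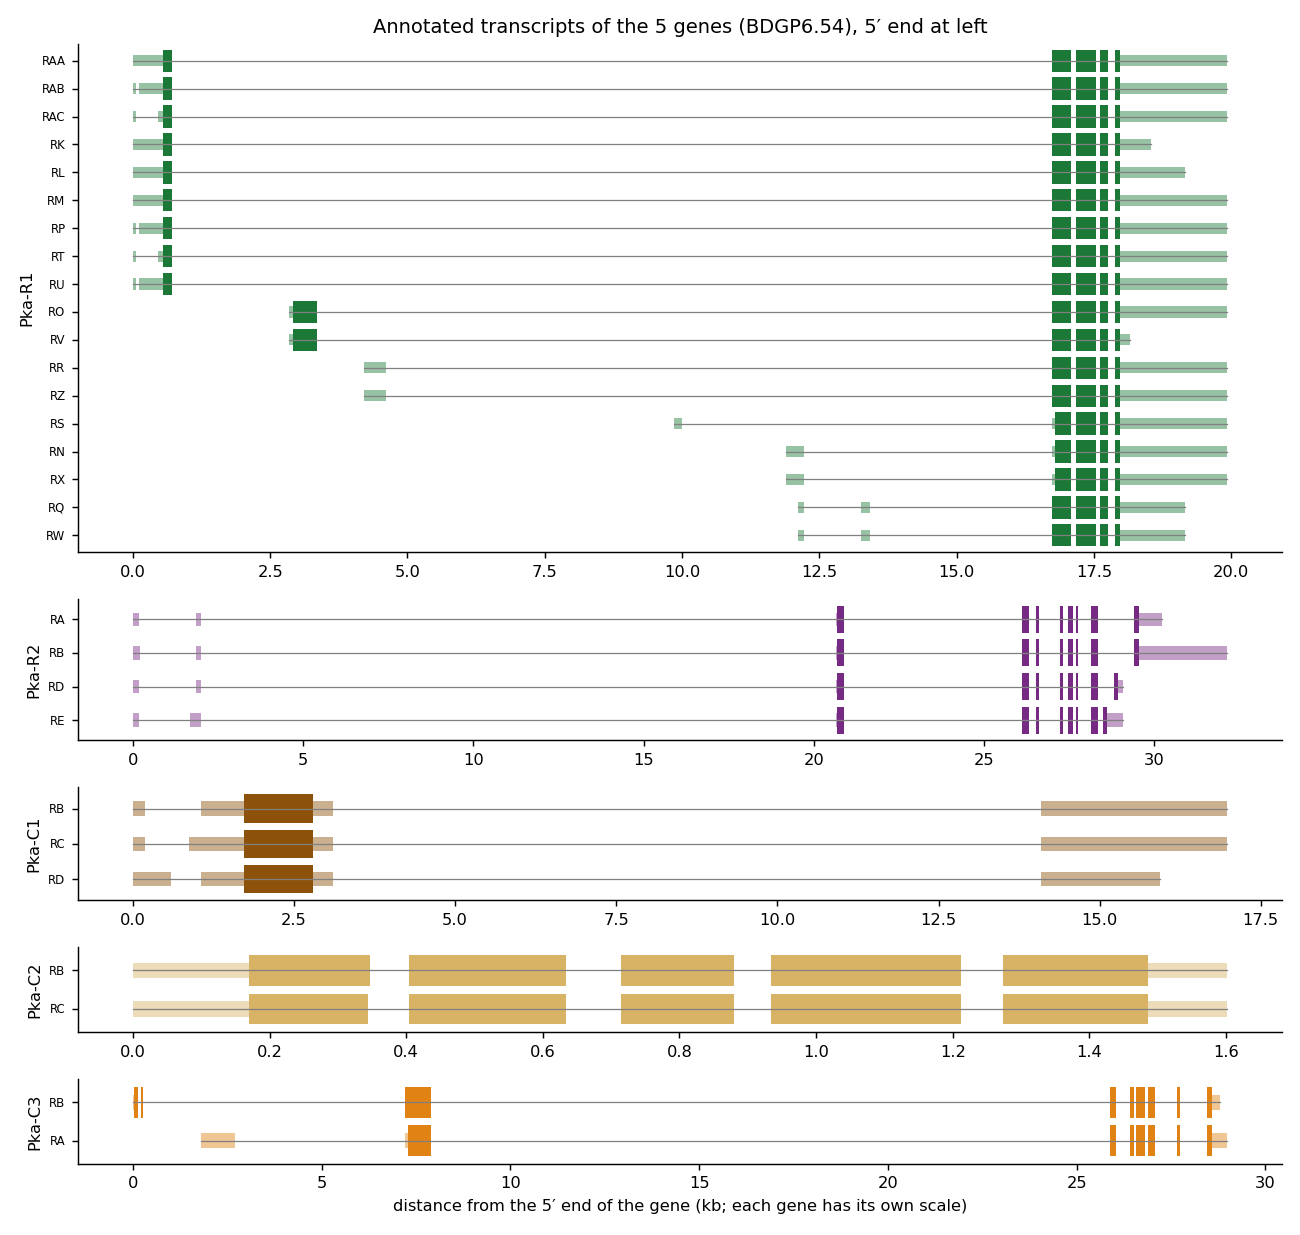
Annotated transcripts of the PKA subunit genes, 1 line per transcript, with distance from the 5′ end of the gene in kb on the horizontal axis (a separate scale for each gene); tall boxes are coding and low boxes are untranslated exon parts. The 18 Pka-R1 transcripts differ mostly in their first exons, the 4 Pka-R2 transcripts in their last exons, and the 3 Pka-C1 transcripts have the same coding exon.

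Pka-R1, the type I regulatory subunit, reached the highest possible score in most tables. It scored 1 at the 20%, 40% and 60% levels in the authors' deposited table of JUM, and likewise in those of rMATS and Whippet. Its MAJIQ score in the authors' deposited table was 0.984 at the 20% level, 1 at the 40% level and 1 at the 60% level. Those scores are shared by many genes. At the 60% level JUM gave 1 to 543 of the 616 AS-list genes it listed, as it did to 18 of its 899 non-AS-list genes. At that level rMATS gave 1 to 378 of 507 AS-list genes and to 2 of 749 non-AS-list genes.

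Cufflinks was the program in which the level mattered most for Pka-R1. Its Cufflinks score in the authors' deposited table was 0.145947 at the 20% level, 0.956438 at the 40% level and 0.999741 at the 60% level. It was thus called at the 40% and 60% levels and was far under the threshold at the 20% level, and with a threshold of 0.99 the call at the 40% level is lost. At the 60% level its score was the highest in the table, a value that 398 AS-list and 17 non-AS-list genes share. At the 20% level 420 AS-list genes and 99 non-AS-list genes scored above it. That low score still stood at percentile 76.9 of the 1822 AS-list genes that Cufflinks listed, since 1371 of them scored 0. MISO did not list Pka-R1 at any level.

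Pka-R2, the type II regulatory subunit, was listed by all 6 programs at every level, which 66 of the 2000 AS-list genes were (3.3%). JUM, rMATS and Whippet each gave it 1 at the 20%, 40% and 60% levels in the authors' deposited table of each. Its MAJIQ score in the authors' deposited table was 0.997 at the 20% level, 1 at the 40% level and 1 at the 60% level. Its Cufflinks score in the authors' deposited table was 0.998743, 0.999637 and 0.999741 at the 20%, 40% and 60% levels, each time the highest score in the table. At the 20% level 87 AS-list and 4 non-AS-list genes held that highest score.

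The regulatory genes therefore parted at the 20% level in Cufflinks, where Pka-R2 was called and Pka-R1 was not. Of the 481 AS-list genes that Cufflinks called at the 60% level, 176 (36.6%) were called at all levels, as Pka-R2 was. Another 204 (42.4%) were called at the 40% level but not at the 20% level, as Pka-R1 was. Both genes were among the 200 AS-list genes (10%) that JUM, MAJIQ, rMATS and Whippet all called at every level. Pka-R2 was also among the 82 (4.1%) that Cufflinks called at every level in addition.

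In MISO, Pka-R2 did not follow the order of the levels. Its Bayes factor in the authors' deposited table was 1.29 at the 20% level, 48.47 at the 40% level and 13.16 at the 60% level. It ranked 26th of 315 listed genes at the 20% level, 4th of 328 at the 40% level and 16th of 329 at the 60% level. No non-AS-list gene reached its Bayes factor at the 40% level, while 13 of 187 did at the 20% level and 5 of 202 at the 60% level. A highest value at the 40% level was seen in 21 of the 96 AS-list genes that MISO listed at all levels (21.9%). Passing 10 at the 40% and 60% levels but not at the 20% level was seen in 4 of the 96 (4.17%).

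**Figure D3:**
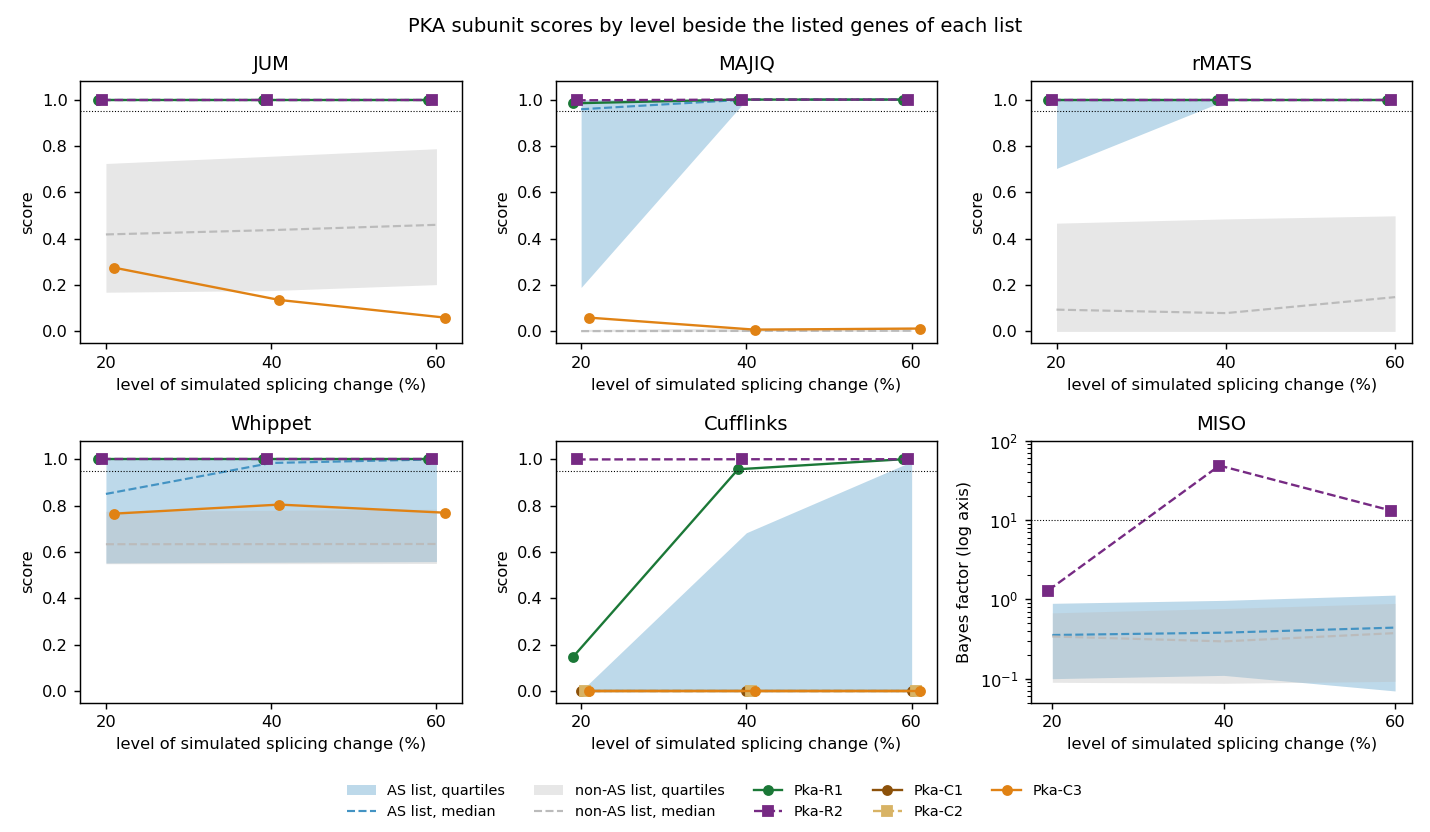
Score of each listed PKA subunit gene (lines with points) against the level of splicing change in percent, 1 panel per program, with the quartiles (bands) and medians (dashed lines) of the listed AS-list and non-AS-list genes; dotted lines mark the thresholds of 0.95 and of a Bayes factor of 10, and points are shifted sideways to separate genes. Pka-R1 lies under the threshold in Cufflinks at the 20% level (0.145947), Pka-R2 peaks in MISO at the 40% level (48.47), and Pka-C3 stays under 0.95 in all panels that show it.

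Set beside all 16595 genes, a call was uncommon in every table, where genes that a table did not list count as not called. With JUM 2 of 5 subunit genes were called at each level, against 3.45% of all genes at the 20% level, 3.8% at the 40% level and 3.95% at the 60% level. With MAJIQ it was 2 of 5 at each level, against 2.39%, 3.71% and 3.97% at the 20%, 40% and 60% levels. With rMATS it was 2 of 5, against 2.27%, 2.58% and 2.71% in the same order of levels. With Whippet it was 2 of 5, against 4.63%, 5.41% and 5.75%. Among listed AS-list genes calls were far more frequent. In the same order of levels JUM called 84.3%, 91% and 91.9% of those it listed, and MAJIQ 51.3%, 78% and 82.7%. For rMATS it was 69.3%, 77.4% and 81.9%, and for Whippet 45.1%, 52.3% and 56.4%.

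The counts differed between levels in Cufflinks and MISO. With Cufflinks 1 of 5 subunit genes was called at the 20% level, against 1.18% of all genes. At the 40% and 60% levels it was 2 of 5, against 2.51% and 3.08%. With MISO none was called at the 20% level, where 0.0121% of all genes were. Pka-R2 alone was called at the 40% level, against 0.0301%, and at the 60% level, against 0.108%. Of the AS-list genes it listed, Cufflinks called 10.1%, 21.6% and 26.4% at the 20%, 40% and 60% levels. For MISO it was 0.781%, 4.03% and 9.45%. The study placed 2 of the 5 genes on its AS list, while 12.1% of all genes were placed there, so these counts are given as a description with no test.

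Counted by gene, Pka-R2 was called by 5 programs at the 20% level and by all 6 at the 40% and 60% levels. Only 2 AS-list genes were called by all 6 at the 40% level (0.1%), Pka-R2 and iPLA2-VIA, which encodes a phospholipase. The 60% level had 7 such genes (0.35%) and the 20% level had none. A call by all 6 needs a call by MISO, which listed 124 AS-list genes at the 40% level and called 5. At the 60% level it listed 127 and called 12. Being called by 5 or more programs at the 20% level was seen in 89 AS-list genes (4.45%). Pka-R1 was called by 4 programs at the 20% level, and 263 AS-list genes (13.2%) were called by 4 or more. It was called by 5 at the 40% level, a number that 235 AS-list genes reached (11.8%), and by 5 at the 60% level, which 271 reached (13.6%). No non-AS-list gene was called by 5 or more programs at any level.

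**Figure D4:**
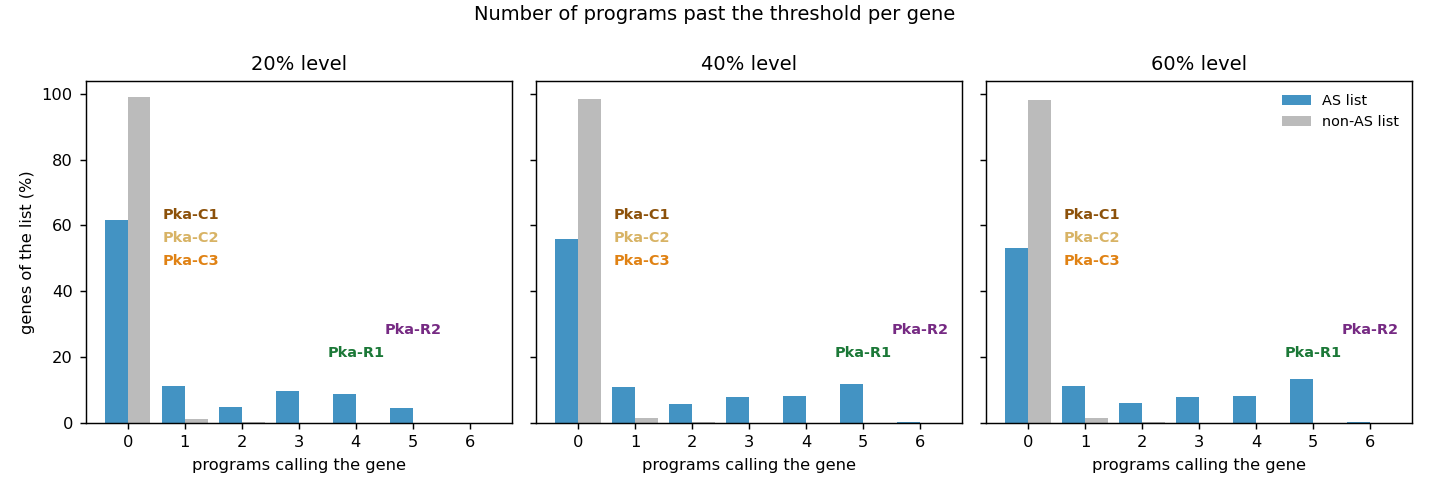
Share of the genes of each list (percent, vertical axis) by the number of programs that called them (horizontal axis), 1 panel per level, AS list in blue and non-AS list in grey; gene names mark the PKA subunit genes at their own number, with the 3 catalytic genes at 0. Pka-R2 stands at 6 at the 40% and 60% levels, where 0.1% and 0.35% of the AS list stand. MISO listed 124 and 127 AS-list genes at those levels.

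The catalytic genes were on the non-AS list, and for Pka-C1 and Pka-C2 the tables hold almost nothing. Each scored 0 in the authors' deposited table of Cufflinks at the 20%, 40% and 60% levels, and no other program listed them. Being in the Cufflinks table alone at all levels was shared with 70.7% of the non-AS-list genes, and a Cufflinks score of 0 at all levels with 97.4% of the 12539 that Cufflinks listed. Pka-C1 and Pka-C2 therefore gave no score by which these programs could be compared.

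Pka-C3 was listed by 4 programs at each level and has 2 annotated starts and a place on the non-AS list. Its JUM score in the authors' deposited table was 0.275 at the 20% level, 0.135 at the 40% level and 0.0595 at the 60% level. These scores run against the order of the levels. Of the 842 non-AS-list genes that JUM listed at all levels, 14.3% had the same falling order and 19.7% the opposite one. At the 60% level 93.2% of the listed non-AS-list genes scored at least as high as Pka-C3 in JUM.

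Its Whippet and MAJIQ scores stood higher among the non-AS-list genes. Its Whippet score in the authors' deposited table was 0.765 at the 20% level, 0.804 at the 40% level and 0.769 at the 60% level. Those scores stood at percentiles 73.5, 78.9 and 72.4 of the listed non-AS-list genes, at the 20%, 40% and 60% levels. Its MAJIQ score in the authors' deposited table was 0.0592, 0.00749 and 0.0122 at the same levels. A score as high or higher was given by MAJIQ to 10%, 33.2% and 29.8% of its listed non-AS-list genes at those levels. Cufflinks gave it 0 at each level in the authors' deposited table, and rMATS and MISO did not list it.

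The absence of calls on Pka-C3 depended on the threshold. When the threshold of each table was lowered as far as it could go with at most 5% of the non-AS list past it, Pka-C3 was past it in 3 programs at the 20% level (JUM, MAJIQ and Whippet), in 3 at the 40% level and in 2 at the 60% level (MAJIQ and Whippet). That rule accepts MAJIQ scores from 0.000542 at the 20% level and JUM scores from 0.116, values that 58.5% and 81.3% of the listed non-AS-list genes reach, and for MISO, with a threshold of 0, it accepts every listed gene. As many programs or more were passed by 3.7%, 3.68% and 5.63% of the non-AS list at the 20%, 40% and 60% levels.

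The number of annotated intron chains differed between the AS-list genes that many programs called and those that few did. Of the 46 AS-list genes with 10 or more chains, the group of Pka-R1, 52.2% were called by 4 or more programs at the 20% level, 87% at the 40% level and 87% at the 60% level. Of the 105 with 4 chains, the group of Pka-R2, it was 38.1%, 54.3% and 61.9%. Of the 1166 AS-list genes counted with 1 chain it was 0.0858%, 0.343% and 0.429%. A gene without introns was also counted with 1 chain. Such calls were thus more frequent in the groups of Pka-R1 and Pka-R2 than among AS-list genes counted with 1 chain. Whether the number of chains bears on the calls was not tested. Pka-R2, with fewer chains, was called by at least as many programs as Pka-R1 at each level. But 6 programs listed Pka-R2 and 5 listed Pka-R1. At the 40% and 60% levels each gene was called by every program that listed it. The catalytic genes have 2 or 3 chains. Among the 2944 non-AS-list genes with 2 or 3, 1.63% were called by any program at the 20% level, 2.48% at the 40% level and 2.82% at the 60% level.

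**Figure D5:**
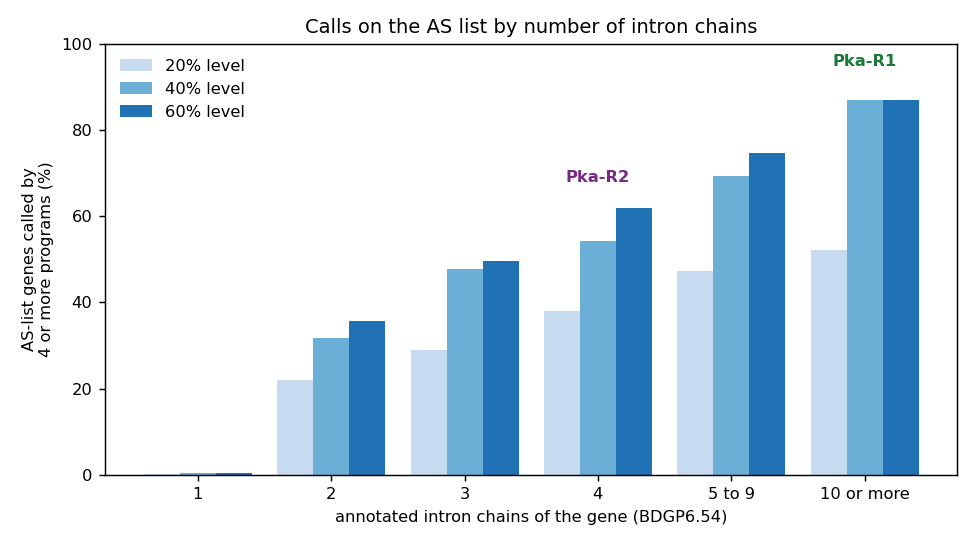
Share of AS-list genes called by 4 or more programs (percent, vertical axis) by the number of annotated intron chains (horizontal axis), with 1 bar per level from 20% to 60%. Names stand over the groups that hold Pka-R1 (10 or more chains, 87% at the 60% level) and Pka-R2 (4 chains, 61.9%). With 1 chain, the count also given to a gene without introns, the bars are at 0.429% or less.

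The genes whose percentiles ran most like those of each subunit were found by the mean absolute difference over the 18 tables, with 0 for a table that did not list a gene. For Pka-R1 they were CG11710 (0.185 percentile points), CG10984 (0.29) and CG15160 (0.305), all on the AS list, of which 1 was kept with Euclidean distance and 1 with MISO left out. For Pka-R2 they were iPLA2-VIA (0.879), CG6701 (1.27) and kuz (1.77), also on the AS list. kuz encodes a metalloprotease that cleaves Notch. Scores could differ where percentiles were near. In the authors' deposited table of Cufflinks at the 20% level, CG11710, CG10984 and CG15160 scored 0.24505, 0.839813 and 0.998743, against 0.145947 for Pka-R1. There kuz scored 0.169299, while iPLA2-VIA and CG6701 scored 0.998743 as Pka-R2 did. The MISO Bayes factors of kuz were 1.14 and 1.43 at the 40% and 60% levels, against 48.47 and 13.16 for Pka-R2. Pka-R1 and Pka-R2 were 16.3 points apart, with 379 genes nearer to Pka-R1 and 124 nearer to Pka-R2 than they were to each other. Most of that distance came from MISO, which listed Pka-R2 only. Its MISO percentiles of 91.9, 98.9 and 95.3 at the 20%, 40% and 60% levels were set against 0 for Pka-R1. Elsewhere the pair differed only in MAJIQ at the 20% level (82.4 for Pka-R1, 85.5 for Pka-R2) and in Cufflinks. There Pka-R1 and Pka-R2 stood at 96.4 and 99.7 at the 20% level and at 97.1 and 98.9 at the 40% level. With MISO left out 0 of the 3 genes nearest to Pka-R2 were kept. For Pka-C3 the nearest were Men-b (3.33), which encodes a malic enzyme, CG4853 (3.82) and CG12134 (4.18), all on the non-AS list. For Pka-C1 and Pka-C2 no gene is named, since 10607 other genes were tied with each at a difference of 0, of which 330 are on the AS list.

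The other genes of the cAMP pathway were on the AS list, or called by any program at the customary thresholds, no more often than genes in general. A list of 61 symbols of pathway genes and related kinases was looked up, and 60 were matched. The anchor gene symbol yu was not, since the only candidate differed in case, and it may name the same gene as the matched entry spoon. The AS list holds 6 of them (10%), and it holds 12.1% of all genes. Any program called 3 of the 60 at the 20% level (5%, against 5.65% of all genes), 2 at the 40% level (3.33%, against 6.66%) and 3 at the 60% level (5%, against 7.18%). The 9 related kinases among the 60 hold 2 of those on the AS list and 2 of those called at each level. With the threshold lowered to at most 5% of the non-AS list, 15, 12 and 14 of the 60 were past it in any program at the 20%, 40% and 60% levels (25%, 20% and 23.3%, against 13.8%, 14.1% and 14.5% of all genes). None of the 10 adenylyl cyclases, 5 G protein subunits or 3 matched anchor proteins was on the AS list or called at the customary thresholds. Most of them were listed by Cufflinks alone, with a score of 0 at each level, and Galphas and Galphai by no program. For those genes the lack of a call goes with a lack of scores.

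The called AS-list genes of the pathway list were both kinases related to the PKA catalytic subunits. Pkn, with 16 intron chains, was called by 4 programs at the 20% level and by 5 at the 40% and 60% levels, the same numbers as Pka-R1. Like Pka-R1 it was missed only by Cufflinks among the programs that listed it at the 20% level, with a Cufflinks score of 0.587281 in the authors' deposited table. Akt1, a kinase of insulin signalling with 3 chains, was called by 3, 4 and 4 programs at the 20%, 40% and 60% levels. rMATS gave Akt1 0.222179, 0 and 0.108394 at those levels in the authors' deposited table.

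The other AS-list genes of the pathway list were called by no program. They were smo, which encodes the Hedgehog signal transducer that PKA phosphorylates, fu, a kinase, and Su(fu), an inhibitor in the same pathway, with the serotonin receptor gene 5-HT1A. Each was counted with 1 annotated intron chain, the count also given to a gene without introns. Of these smo came nearest, since JUM gave it 0.939437, 0.58754 and 0.55006 at the 20%, 40% and 60% levels in the authors' deposited table. Su(fu) was listed by Cufflinks only, with a score of 0 at each level in the authors' deposited table.

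Among the non-AS-list genes of the pathway, CrebB, which encodes a transcription factor that PKA activates, was called by 2 programs at the 60% level and by none at the other levels. Its JUM score in the authors' deposited table was 0.23093 at the 20% level, 0.941417 at the 40% level and 0.990061 at the 60% level. Its MISO Bayes factor at the 60% level was 1e+12 in the authors' deposited table, a value that 7 AS-list and 5 non-AS-list genes held. MISO did not list CrebB at the 20% and 40% levels. Pde1c, a phosphodiesterase gene named after its values were seen, was called by Whippet at the 20% level, with 0.976 in the authors' deposited table against 0.856 at the 40% level and 0.904 at the 60% level.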

How the data were processed

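Per the labels, the libraries were simulated, with 3 replicates in each of 4 groups. Per the submitters' processing notes, Cufflinks, STAR 2.5.4b and build dm3 were used, in steps not named. What simulator, depth and program settings were used is not given in the sources used here. Deposited by the authors were 18 tables with a score and a class label per gene, and 2 gene lists. Scales are not stated. Judged by its values, a MISO score is a Bayes factor, a Whippet or MAJIQ score a probability, and a Cufflinks, JUM or rMATS score the complement of a p-value or of its adjusted form, so that higher means stronger evidence. From 8 to 10 rMATS scores per level are negative, and none belongs to a PKA subunit gene. A complement of a p-value cannot be negative, so that reading of the rMATS score does not hold for those genes and remains uncertain. Labels matched the lists for every gene.

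Calls used 0.95, or a Bayes factor of 10 for MISO. Percentiles are mid-ranks within 1 table. Of 16595 genes, 16410 (98.9%) were found in the BDGP6.54 annotation (Ensembl release 115), 12402 under their current symbol and 4008 under a unique older one, and all 5 subunit genes by current symbol. Coordinates are from that annotation, 1-based. Protein lengths are coding bases divided by 3. No sequence is printed, since no sequence file was used here.

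The subunit genes, the pathway list, the thresholds and the rules were chosen with earlier results of these data known. The text names all 5 subunit genes, the 3 nearest genes of each (none where more than 3 tie), pathway genes on the AS list, and non-AS-list pathway genes that 2 or more programs called at 1 level. The functions were tested on simulated scores with known answers. Alternatives were other thresholds, ranks and distances. Python 3.11.15, numpy 2.4.6 and matplotlib 3.10.9 were used.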

Additional observations from a re-analysis of the deposited data

How the results depend on the processing

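No paired analysis was possible because each deposited table pools the 3 knockdown and 3 control libraries, and for the same reason no replicate could be left out. With stricter thresholds (0.99, Bayes factor 20) or looser ones (0.90, Bayes factor 5), the number of programs calling each of the 5 subunit genes stayed within 1.5 times its value at all 3 levels; with the stricter ones Pka-R1 was called by 3 and 4 programs at the 20% and 40% levels, having lost MAJIQ and Cufflinks in turn, and Pka-R2 by 5 at the 60% level, having lost MISO. With the 5% false positive rate, calls on the subunit genes numbered 14, 14 and 13 of 30 at the 20%, 40% and 60% levels. The customary thresholds gave 9, 11 and 11. Those counts are pairs of a gene and a program, and the share of all such pairs was not computed. Counted by gene, 13.8%, 14.1% and 14.5% of all genes were past the 5% threshold in any program at those levels. Pka-R1, Pka-R2 and Pka-C3 were among them at each level, and Pka-C1 and Pka-C2 were not. Pka-C3 was past the threshold in 3, 3 and 2 programs at those levels, against 0 at each. That rate accepts low scores by construction. Pathway genes called by any program numbered 5, 4 and 7 at the 20%, 40% and 60% levels with the looser thresholds (8.33%, 6.67% and 11.7% of the 60, against 6.69%, 7.59% and 7.96% of all genes) and 15, 12 and 14 at the 5% rate (25%, 20% and 23.3%, against 13.8%, 14.1% and 14.5%). With the customary thresholds, 1, 2 and 2 of the 60 were called by 4 or more programs at the 20%, 40% and 60% levels. Those are 1.67%, 3.33% and 3.33%, against 1.58%, 2.4% and 2.6% of all genes. The stricter thresholds gave 0 and 1 at the 20% and 40% levels (0% and 1.67%, against 1.25% and 2.25% of all genes). The 5% rate gave 4 and 6 at the 20% and 60% levels (6.67% and 10%, against 4.42% and 4.78% of all genes). The cause of these shifts was not tested. Of the 3 genes nearest to Pka-R1, 1 was kept with Euclidean distance and 1 without MISO, and of those nearest to Pka-R2, 0 were kept without MISO. Ranking among all 2000 AS-list genes, unlisted ones lowest, moved all 33 percentiles of Pka-R1 and Pka-R2 upward, that of their JUM score at the 20% level to 89.6 against 66. That direction was fixed in advance, since unlisted genes were added below. The labels from the lists changed no count and could change none, since they matched the lists for every gene. Depth per library is unknown, so a score of 0 or a missing listing does not show that a gene was spliced alike.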

Other observations

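Of the 54 pathway genes on the non-AS list, 4 were past the 5% false positive threshold in 4 or more programs at some level (7.41%, against 3.01% of the whole non-AS list). One is CrebB, and the others are named after their values were seen. That rule accepts every gene that MISO lists. The class IIa deacetylase gene HDAC4 was past it in 5 programs at each level, MISO among them, and was called at the customary thresholds by none. The phosphodiesterase gene dnc was past it in 4, 3 and 4 programs at the 20%, 40% and 60% levels, and the adenylyl cyclase gene Ac78C in 3, 2 and 4. HDAC4 has 8 annotated intron chains, dnc 17 and Ac78C 4, against 2 for Pka-C3, which was past it in 3, 3 and 2. Other non-AS-list genes of the pathway list with many chains were past it in no program at any level. Among them are for (13 chains), aPKC (11) and Pde8 (11), also named after their values were seen and listed by Cufflinks alone. A link with the number of chains was not tested.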
